A study of Rattus norvegicus with 8 samples.

Results

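Genes that mark microglia, the resident macrophages of the brain, were followed in cultures of rat oligodendrocyte precursor cells (OPCs) kept without oxygen and glucose. The list held 30 genes, taken by symbol from a table of 32662 rows, and 29 of them had a row of their own. Itgam, the integrin alpha chain of complement receptor 3, stood on a row that the table shares with its neighbour Itgad, so its value is given but not counted. The genes fell into complement (C1qa, C1qb, C1qc), surface receptors, transcription factors, signalling proteins, and phagocyte enzymes with lysosomal proteins. Among the surface receptors, Cx3cr1, P2ry12, Tmem119, Gpr34 and Csf1r were set apart as homeostatic receptors, those typical of surveying microglia.

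The OGD group held 4 libraries from cultures kept for 6 h under oxygen glucose deprivation, a culture model of ischaemia. The Control group held 4 libraries under normal conditions, for which the same treatment time of 6 h was recorded. In both groups the cells came from the cerebral cortex of Sprague Dawley pups aged 1 to 2 days. Mixed glia were grown with 20% serum, and the cells that did not adhere were moved to Neurobasal medium for 4 to 5 days, with PDGF at 10 ng/ml, FGF at 10 ng/ml, B27 at 2%, glutamine at 2 mM and antibiotic at 1%. Such a collection step enriches OPCs and is not a sort, so other glia can be carried along. The labels do not say that the libraries of a group came from separate cultures, so the p-values measure the spread between these libraries, which may be technical.

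Microglia depend on signalling through Csf1r and are specified by the transcription factors Spi1 and Irf8. They make nearly all of the C1q of the brain, sense nucleotides and fractalkine through P2ry12 and Cx3cr1, and clear debris through receptors such as Trem2, which signals through the adaptor Tyrobp. In cultures of other glia they are a common minor companion, and their RNA is then read together with that of the main cell type.

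The promoters shown here are those of the genes on which the comparisons turn: C1qb, a C1q chain, Csf1r, Cx3cr1 with the lowest OGD value relative to Control, and Trem2 and Apbb1ip with the highest. Each is the 250 bases before the gene's start on the gene's own strand, from the RefSeq promoter table for the GRCr8 build. C1qb lies at chr5:154407828-154408077 on the minus strand, Csf1r at chr18:56834129-56834378 on the plus strand and Cx3cr1 at chr8:128677067-128677316 on the minus strand. Trem2 lies at chr9:20151780-20152029 on the minus strand and Apbb1ip at chr17:89890772-89891021 on the plus strand. Capitals mark the core of the PU box, GAGGAA on either strand (TTCCTC when read on the gene's strand), the sequence that the Spi1 protein recognises.
C1qb: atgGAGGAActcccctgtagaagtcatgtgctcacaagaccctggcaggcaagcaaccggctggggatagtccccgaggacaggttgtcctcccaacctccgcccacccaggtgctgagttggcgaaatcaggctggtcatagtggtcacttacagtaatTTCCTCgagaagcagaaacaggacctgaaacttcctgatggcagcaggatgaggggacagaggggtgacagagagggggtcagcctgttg
Csf1r: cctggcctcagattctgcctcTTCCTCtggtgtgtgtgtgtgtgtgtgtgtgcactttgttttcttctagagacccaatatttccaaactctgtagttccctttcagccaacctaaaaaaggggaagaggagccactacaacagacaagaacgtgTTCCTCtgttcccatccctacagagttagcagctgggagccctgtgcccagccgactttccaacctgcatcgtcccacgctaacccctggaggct
Cx3cr1: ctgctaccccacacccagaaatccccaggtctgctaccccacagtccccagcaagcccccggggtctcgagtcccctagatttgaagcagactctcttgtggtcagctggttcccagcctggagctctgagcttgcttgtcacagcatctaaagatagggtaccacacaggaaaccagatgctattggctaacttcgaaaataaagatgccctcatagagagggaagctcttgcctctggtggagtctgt
Trem2: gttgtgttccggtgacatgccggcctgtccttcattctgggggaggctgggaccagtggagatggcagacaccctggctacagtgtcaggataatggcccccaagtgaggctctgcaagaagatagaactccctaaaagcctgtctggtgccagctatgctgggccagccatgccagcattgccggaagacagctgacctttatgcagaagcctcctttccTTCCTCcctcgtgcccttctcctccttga
Apbb1ip: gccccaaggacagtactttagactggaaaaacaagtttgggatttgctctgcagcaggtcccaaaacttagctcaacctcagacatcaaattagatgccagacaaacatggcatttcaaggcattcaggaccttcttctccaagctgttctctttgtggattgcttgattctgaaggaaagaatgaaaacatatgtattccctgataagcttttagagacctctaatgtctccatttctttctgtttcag
C1qb held the core at -247 and -90 relative to the start, Csf1r at -229 and -95, and Trem2 at -29. The windows of Cx3cr1 and Apbb1ip, at opposite ends of the range of ratios, held no such letters. Of the 20 listed genes with an entry in that table, 12 held the core, or 60.0%, against 23.3% of all 33469 promoters of the same length. The longer form GAGGAAGT, which contains the core, stood in 3 of the 20 (Cd53, Vav1 and Ctss), or 15%, against 2.04% of all promoters. Several motif lengths were looked at before these 2 were kept, so the shares are a description with no test, and a match is not a site that is known to be bound.

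Levels are in FPKM, a fragment number divided by the length of the gene and by the size of the library, and total fragment numbers are unknown. Steps between low values gave relative depths between 0.815 and 1.17 with Control 1 set to 1, and 14095 to 14444 genes per library were above 0. OPC markers were abundant in all 8 libraries, and their summed level lay between 1410 and 1619 FPKM in OGD and between 2177 and 2302 FPKM in Control libraries. The 29 microglial genes summed to 139.9 to 244.5 FPKM, or 0.0312% to 0.0556% of all FPKM, in OGD libraries, and to 366.5 to 566.8 FPKM, or 0.0742% to 0.121%, in Control libraries. Siglech, a microglial lectin of rodents, was listed at 0 in all 8. A value of 0 in this table can be a failed estimate.

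**Figure D1:**
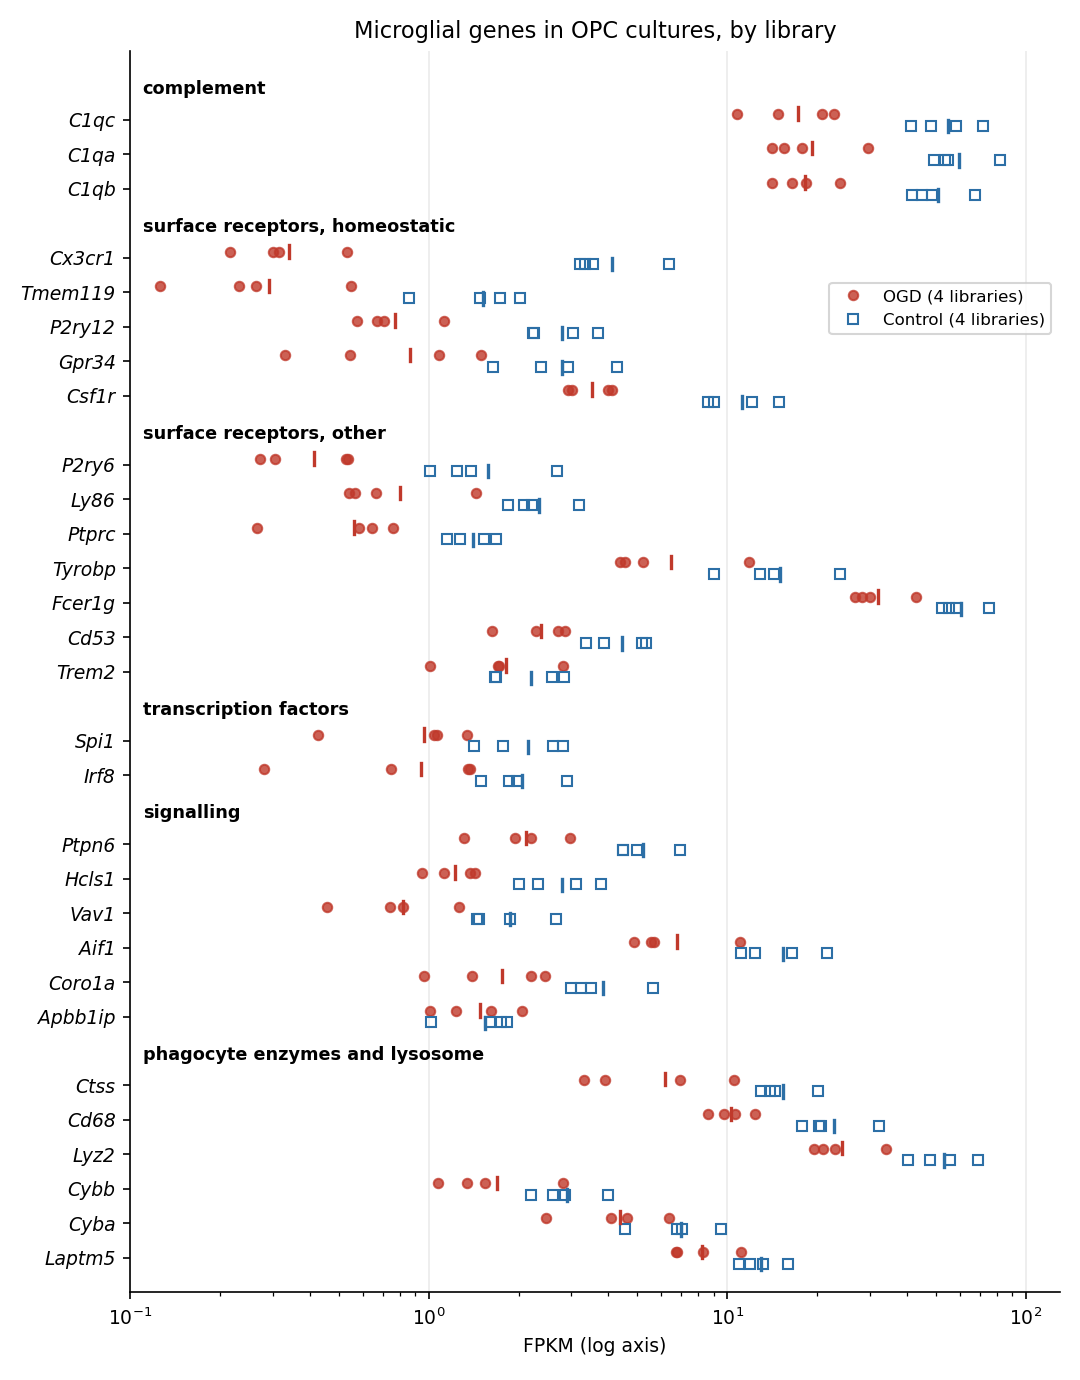
Level of each of the 29 microglial genes in each library, in FPKM on a log axis, by role; filled circles are the 4 OGD libraries, open squares the 4 Control libraries, and short vertical lines the group means. The 2 groups do not overlap for 23 of the 29 genes, and Trem2 and Apbb1ip are the rows where they lie on top of each other.

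Microglial genes were lower in OGD than in Control libraries. Of the 28 genes that passed the filter of at least 1 FPKM in at least 4 libraries, 25 fell, 0 rose and 3 did not pass the threshold (limma on log2(FPKM + 1), Benjamini-Hochberg adjusted p under 0.05 over all 11149 tested genes). At an unadjusted p under 0.05, 0 rose as well. Of all tested genes, 26.8% were called lower. Cx3cr1, P2ry6 and Ptprc passed the filter only through their Control libraries and so had to differ, and Tmem119 was below the filter and was not tested. The median log2 change of the tested members was -0.90, against -0.04 over all tested genes. All 4 OGD libraries were lower than all 4 Control libraries for 23 of the 29 genes, against 24.1% of all tested genes. The ratio of means was under 0.5 for 22 of the 29, and for 4.63% of the tested genes. In RNA from whole cultures, fewer microglia and less RNA per microglial cell cannot be told apart.

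The 3 chains of C1q, which assemble into the molecule that starts the classical complement pathway, were among the most abundant microglial transcripts and fell together. C1qa (ENSRNOG00000012807) stood at 15.5, 17.8, 14.1 and 29.5 FPKM in OGD 1 to 4, against 49.4, 55.0, 53.5 and 81.9 FPKM in Control 1 to 4. C1qb (ENSRNOG00000012749) stood at 14.1, 18.3, 16.5 and 23.9 FPKM in OGD, against 41.6, 48.5, 44.9 and 67.4 FPKM in Control. C1qc (ENSRNOG00000012804) stood at 14.8, 20.8, 10.8 and 22.8 FPKM in OGD, against 48.3, 58.6, 41.1 and 72.0 FPKM in Control. For each chain the highest OGD library was well below the lowest Control library, and replicate 4 was the highest of both groups. The ratios of means were close to each other, at 0.321 ± 0.0707 for C1qa, 0.359 ± 0.0582 for C1qb and 0.315 ± 0.0631 for C1qc (SE propagated from the group SDs, n = 4 each). The log2 changes were -1.62 ± 0.21, -1.43 ± 0.17 and -1.64 ± 0.22 (SE), with limma adjusted p of 0.000138, 6.59e-05 and 0.000163 for C1qa, C1qb and C1qc.

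Of the homeostatic receptors, all 4 that could be tested fell, Cx3cr1 being tested through Control only. Cx3cr1 had the lowest ratio of the whole list. Cx3cr1 (ENSRNOG00000018509), the receptor for the neuronal chemokine fractalkine, stood at 0.531, 0.302, 0.216 and 0.314 FPKM in OGD 1 to 4, against 3.2, 3.33, 3.55 and 6.36 FPKM in Control 1 to 4. Every OGD library was far below the lowest Control library. The ratio of means was 0.0828 ± 0.0223, and 4 of the 11149 tested genes had a lower one. On the log2(FPKM + 1) scale the change was -1.90 ± 0.18. Since the gene passed the filter only through Control, it had to differ, and no p is given for it. That scale understates low genes: without a pseudocount, an alternative chosen after seeing the data, the change was -3.61.

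The low OGD values of Cx3cr1 moved in steps. Multiplied by relative depth they stood to one another as whole numbers within 0.08 of a step, the smallest of which were 4, 2, 2 and 3 in OGD, and on the same step the Control values came nearest to 26, 28, 32 and 55. If whole fragments were counted, these are the fewest that could give the values, and multiples of them would serve as well. Tmem119 (ENSRNOG00000000700), a transmembrane protein used to mark resident microglia, gave 3, 3, 2 and 9 in OGD, and 12, 25, 23 and 30 in Control on the same reckoning. How many fragments stood behind a step is unknown, so no counting error can be given.

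Tmem119 stood at 0.231, 0.263, 0.125 and 0.547 FPKM in OGD, against 0.859, 1.73, 1.48 and 2.02 FPKM in Control, with a ratio of 0.192 ± 0.0668 and no test. P2ry12 (ENSRNOG00000013902), the ADP receptor that steers microglial processes to injury, stood at 0.707, 1.13, 0.574 and 0.669 FPKM in OGD, against 2.23, 3.04, 2.24 and 3.69 FPKM in Control. Gpr34 (ENSRNOG00000039759), a receptor for lysophosphatidylserine, stood at 0.543, 1.08, 0.331 and 1.5 FPKM in OGD, against 1.64, 2.92, 2.38 and 4.26 FPKM in Control. The groups did not overlap for any of these genes, though OGD 4 came close to Control 1 for Gpr34. Csf1r (ENSRNOG00000018414), the receptor on which microglial survival depends, was the most abundant of the homeostatic receptors, at 2.94, 3.98, 3.02 and 4.12 FPKM in OGD, against 9.02, 12.1, 8.62 and 14.9 FPKM in Control. The log2 changes were -1.10 ± 0.16 for P2ry12, -1.03 ± 0.24 for Gpr34 and -1.41 ± 0.16 for Csf1r, with limma adjusted p of 0.000258, 0.00479 and 6.38e-05. Their ratios, 0.274 ± 0.0556, 0.308 ± 0.112 and 0.315 ± 0.05, were near those of C1q.

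Among the other 7 surface proteins, 6 fell and Trem2 did not pass the threshold. Of the 6, P2ry6 and Ptprc were tested through Control only and had to differ, so they are given without a p. P2ry6 (ENSRNOG00000019270), the UDP receptor that triggers phagocytosis, had the lowest ratio of these, 0.260 ± 0.0762 (log2 change -0.84 ± 0.19). Its levels were 0.537, 0.306, 0.273 and 0.529 FPKM in OGD and 1.25, 1.39, 1.01 and 2.69 FPKM in Control. Ly86, the secreted partner of a Toll-like receptor homologue, had a ratio of 0.344 ± 0.102, and Ptprc, the leukocyte common phosphatase, 0.400 ± 0.0825. Cd53, a tetraspanin of white blood cells, had a ratio of 0.535 ± 0.0851. The log2 changes were -0.90 ± 0.18 for Ly86, -0.63 ± 0.15 for Ptprc and -0.69 ± 0.16 for Cd53, and their groups did not overlap. The shared Itgam and Itgad row read 0.410, 0.481, 0.496 and 0.650 FPKM in OGD, against 1.42, 1.87, 1.28 and 2.34 FPKM in Control, a ratio of 0.295 that cannot be split between the genes.

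The adaptor Tyrobp was called lower and its partner receptor Trem2 was not, and these genes were not tested against each other. Tyrobp (ENSRNOG00000020845) stood at 5.23, 4.36, 4.53 and 11.9 FPKM in OGD, against 12.9, 14.3, 9.01 and 23.9 FPKM in Control. Trem2 (ENSRNOG00000013578), a receptor for lipids and apolipoproteins, stood at 1.71, 2.82, 1.01 and 1.71 FPKM in OGD, against 2.59, 1.67, 1.68 and 2.84 FPKM in Control. The Tyrobp groups overlapped only through OGD 4, whereas the Trem2 groups lay across each other. Tyrobp had a ratio of 0.431 ± 0.150 and a log2 change of -1.12 ± 0.31 (limma adjusted p = 0.0109). Trem2 had a ratio of 0.826 ± 0.205 and a log2 change of -0.20 ± 0.20 (limma adjusted p = 0.426, range over 19 alternatives 0.129 to 0.841). Its log2 change lay between -0.36 without OGD 2 and -0.05 without OGD 3, and it was -0.11 without Control 4. Fcer1g (ENSRNOG00000024159), the gamma chain shared by Fc receptors, was with C1q among the most abundant microglial transcripts. It stood at 28.2, 26.8, 30.1 and 43.0 FPKM in OGD, against 58.6, 52.5, 55.5 and 75.3 FPKM in Control, a ratio of 0.530 ± 0.0761 with no overlap (log2 change -0.91 ± 0.15, limma adjusted p = 0.000574).

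Both transcription factors fell, to nearly the same ratio. Spi1 (ENSRNOG00000012172), the factor that sets up the macrophage lineage, stood at 0.425, 1.07, 1.04 and 1.34 FPKM in OGD, against 1.42, 2.60, 1.78 and 2.82 FPKM in Control. Irf8 (ENSRNOG00000017869), which acts with it, stood at 0.747, 1.37, 0.280 and 1.36 FPKM in OGD, against 1.49, 1.86, 1.97 and 2.91 FPKM in Control. The groups did not overlap for either gene, but the gap was narrow. The ratios were 0.449 ± 0.113 for Spi1 and 0.457 ± 0.144 for Irf8, with log2 changes of -0.68 ± 0.19 and -0.68 ± 0.21 (limma adjusted p = 0.0132 and 0.0217). The call of Irf8 was lost without Control 4, without OGD 1 and without OGD 3, with limma adjusted p of 0.0652, 0.0521 and 0.0518 (range over 19 alternatives 0.0109 to 0.0652).

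Of the 6 signalling proteins, 5 fell by like amounts and Apbb1ip did not pass the threshold. Aif1 (ENSRNOG00000000853), the calcium-binding protein stained as a microglial marker, was the most abundant, at 5.69, 5.54, 4.88 and 11 FPKM in OGD and 12.4, 11.1, 16.5 and 21.6 FPKM in Control. OGD 4 stood just under the lowest Control library for this gene. The ratios were 0.441 ± 0.115 for Aif1, 0.405 ± 0.0803 for the phosphatase Ptpn6, 0.435 ± 0.0734 for the actin adaptor Hcls1, 0.439 ± 0.112 for the exchange factor Vav1 and 0.458 ± 0.116 for the actin regulator Coro1a. None of these 5 genes overlapped between the groups, and their log2 changes lay between -1.09 (Aif1, limma adjusted p = 0.00326) and -0.65 (Vav1, limma adjusted p = 0.0103). Apbb1ip (ENSRNOG00000017803), an adaptor between Rap1 and integrins, stood at 1.62, 1.01, 1.23 and 2.06 FPKM in OGD, against 1.02, 1.6, 1.75 and 1.82 FPKM in Control. Its ratio was 0.957 ± 0.187 and its log2 change -0.04 ± 0.16 (limma adjusted p = 0.843, range over 19 alternatives 0.185 to 1.0). The sign of that change turned without Control 4 (0.009), without OGD 2 (0.05) and without OGD 3 (0.00015), and no direction can be given for this gene.

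Of the 6 phagocyte enzymes and lysosomal proteins, 5 fell. Ctss (ENSRNOG00000021157), the cathepsin of microglial lysosomes, stood at 3.89, 6.96, 3.31 and 10.5 FPKM in OGD, against 14.4, 13, 13.9 and 20.2 FPKM in Control. Lyz2 (ENSRNOG00000005825), macrophage lysozyme, stood at 19.5, 22.9, 20.9 and 34.0 FPKM in OGD, against 47.8, 40.4, 55.7 and 69.5 FPKM in Control. Cd68 (ENSRNOG00000037563), a lysosomal glycoprotein, stood at 9.73, 10.6, 8.6 and 12.4 FPKM in OGD, against 17.8, 20.3, 20.7 and 32.3 FPKM in Control. The groups were apart for all 3 genes, with ratios of 0.401 ± 0.116, 0.456 ± 0.0815 and 0.454 ± 0.0736 for Ctss, Lyz2 and Cd68. Their log2 changes were -1.28 ± 0.27, -1.11 ± 0.18 and -1.04 ± 0.16, with limma adjusted p of 0.0026, 0.000621 and 0.000448.

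The membrane subunits of NADPH oxidase and the lysosomal protein Laptm5 had higher ratios, and their groups overlapped. Cybb (ENSRNOG00000003622), the catalytic subunit, stood at 1.54, 1.07, 1.34 and 2.81 FPKM in OGD, against 2.2, 2.6, 2.86 and 4.00 FPKM in Control. Cyba (ENSRNOG00000013014), its partner subunit, stood at 4.07, 6.36, 2.48 and 4.62 FPKM in OGD, against 7.07, 4.55, 6.79 and 9.51 FPKM in Control. The ratios were 0.580 ± 0.153 for Cybb and 0.627 ± 0.146 for Cyba, and that of Laptm5 was 0.632 ± 0.0945 (log2 change -0.62 ± 0.15, limma adjusted p = 0.00664). Cybb passed the threshold (-0.56 ± 0.20, limma adjusted p = 0.0364, range over 19 alternatives 0.00308 to 0.105) and Cyba did not (-0.58 ± 0.23, limma adjusted p = 0.0559, range over 20 alternatives 0.0182 to 0.158). Neither call was firm. The limma adjusted p of Cybb was 0.0536, 0.0694 and 0.105 without Control 2, 3 and 4, and 0.0732, 0.0947 and 0.0878 without OGD 1, 2 and 3. That of Cyba was 0.0214 without Control 2 and 0.0182 without OGD 2.

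**Figure D2:**
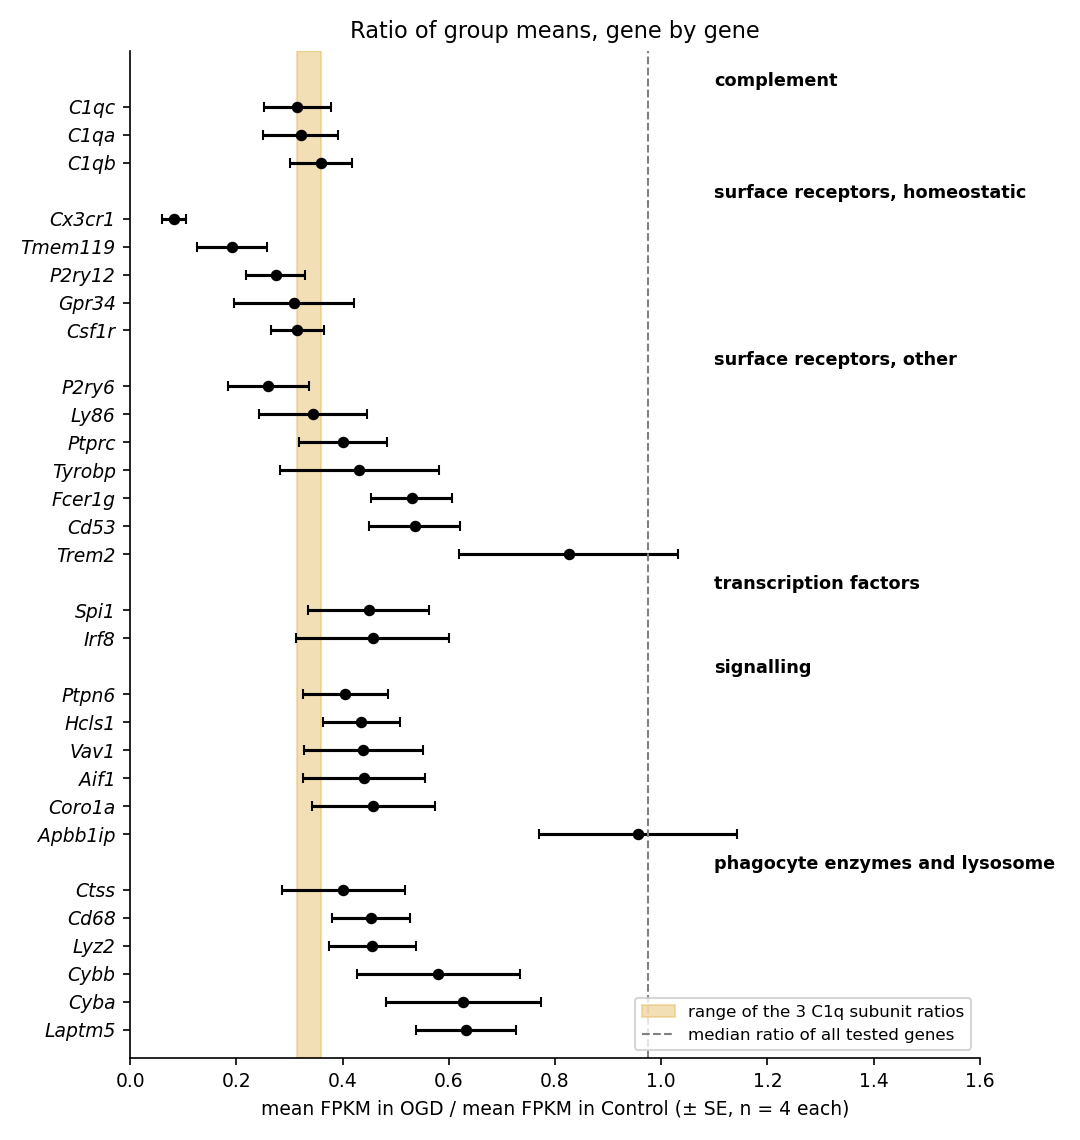
Ratio of mean FPKM, OGD over Control, for each microglial gene, with its SE (n = 4 each), ordered within each role; the band spans the 3 C1q ratios and the dashed line is the median ratio of all tested genes, 0.975. Cx3cr1 lies far to the left of the band, Csf1r and Gpr34 lie in or at it, and Trem2 and Apbb1ip lie near the dashed line.

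Gene by gene, the homeostatic receptors had lower ratios than most of the other members. The 5 ratios lay between 0.0828 and 0.315 with a median of 0.274, and the 24 others between 0.260 and 0.957 with a median of 0.445. The ranges met: P2ry6 lay among the homeostatic receptors, and C1qc and C1qa were level with Csf1r. Ratios this low were not particular to homeostatic receptors. Among the further lists given below, the purinergic receptor P2ry13 stood at 0.0501, Pik3cg at 0.0823, C3ar1 at 0.122 and Tlr2 at 0.202, all tested through Control only. Other genes of the same lists had higher ratios, such as Lyn at 0.846, C1qbp at 1.008 and Myd88 at 0.734. The mean log2(FPKM + 1) of the 4 tested homeostatic receptors minus that of the 24 other tested members was -1.21 ± 0.16 in OGD and -0.72 ± 0.12 in Control libraries (SD, n = 4 each), with no overlap, a difference of -0.49. The size of that difference depends on the scale and on Cx3cr1: it was -1.08 without a pseudocount and -0.31 without Cx3cr1. Since the genes were chosen with their values known, it carries no test.

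Whether a gene fell more or less than C1q was asked by expressing every gene of the table relative to the mean log2 level of the 3 C1q chains in the same library. Of the 25 members tested this way on the log2(FPKM + 1) scale, 15 were called above C1q, 0 below and 10 were not told apart from it. Against such a reference 97.6% of all genes are called above it and 0.0538%, or 6 genes, below it. The 15 is thus below the background share. For a low gene a call above C1q on this scale need not mean a smaller fall. P2ry6, with a ratio of 0.260, and Ly86, with 0.344, are among the 15, while the C1q ratios were 0.315 to 0.359. P2ry6 and Ptprc, also among the 15, passed the filter only through Control. The count depended on the scale and on the reference: it was 7 above and 1 below with a pseudocount of 0.1 and with none. It was 2 above and 3 below when the mean of Tyrobp, Fcer1g, Laptm5 and Ctss stood in for C1q. That fit leaves out those genes and counts the C1q chains among the members. Of the members tested against C1q only Cx3cr1 was below this other reference, and the rest of the 3 were C1q chains. The 10 that were not told apart were Cx3cr1, Csf1r, P2ry12, Gpr34, Tyrobp, Ptpn6, Aif1, Ctss, Lyz2 and Cd68, and at an unadjusted p under 0.05 the count of members below C1q was also 0. Trem2 (1.36 ± 0.31) and Apbb1ip (1.52 ± 0.31) stood farthest above C1q in log2 units, with limma adjusted p of 1.32e-05 and 1.59e-06. The noise of C1q enters every gene alike in this test.

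For Cx3cr1 the outcome depended on the scale. Relative to C1q it changed by -0.33 ± 0.31 with a pseudocount of 1 (limma adjusted p = 0.281). With a pseudocount of 0.1 the value was -1.63 (limma adjusted p = 0.000154), and without a pseudocount -1.99 ± 0.40 (limma adjusted p = 9.74e-07). Over 13 alternatives the adjusted p ranged up to 0.635. Cx3cr1 reached the filter of 1 FPKM only through Control, so these p-values show the dependence on scale and give no support. In plain levels there were 3.59, 1.59, 1.56 and 1.23 FPKM of Cx3cr1 per 100 FPKM of C1q (the mean of the 3 chains) in OGD 1 to 4, against 6.89, 6.17, 7.63 and 8.62 in Control 1 to 4, with no overlap. Csf1r per 100 FPKM of C1q was 19.7 ± 2.5 in OGD and 20.2 ± 1.66 in Control libraries, and P2ry12 4.38 ± 1.38 in OGD and 5.07 ± 0.389 in Control (SD, n = 4 each), both overlapping. Trem2 per 100 FPKM of C1q was 10.1 ± 3.83 in OGD and 4.03 ± 1.08 in Control libraries, with no overlap. C1q made up 31.0% ± 1.43 of the summed microglial FPKM in OGD and 39.0% ± 2.18 in Control libraries, so the proportions among these genes were not the same in both groups.

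**Figure D3:**
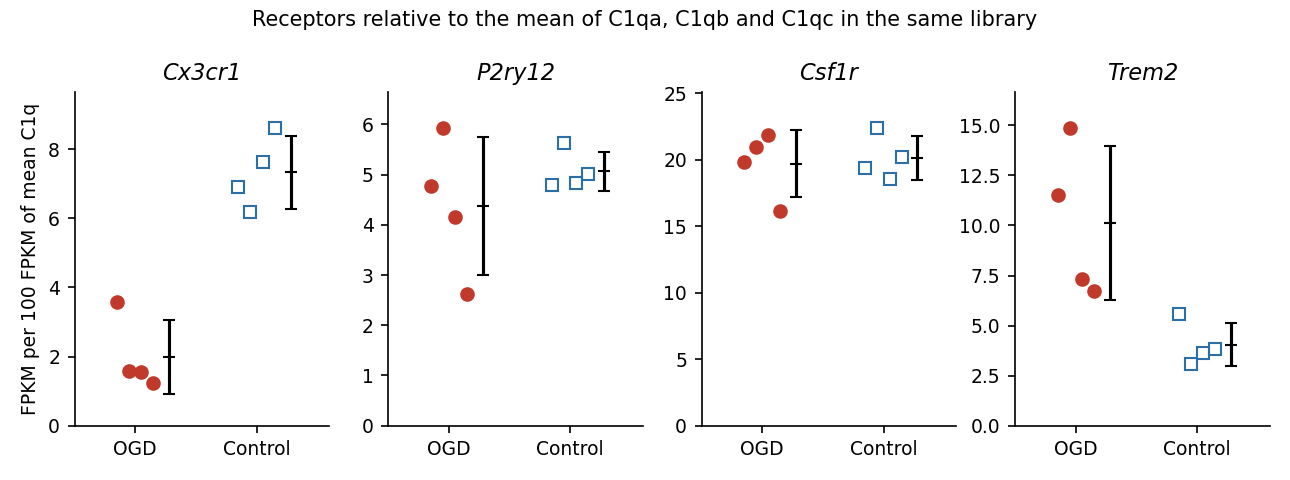
FPKM of 4 microglial receptors per 100 FPKM of C1q (the mean of the 3 chains) in each library, OGD at the left and Control at the right of each panel; points are libraries and bars the mean with its SD (n = 4 each). Cx3cr1 is lower in every OGD library (1.23 to 3.59) than in any Control library (6.17 to 8.62), Trem2 is higher, and P2ry12 and Csf1r overlap.

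The libraries of a group differed in their microglial genes as a block. Control 4 was the highest of its group for 28 of the 29 genes and OGD 4 for 22 of 29. The median member was 1.5 times as high in Control 4 as in the mean of Control 1 to 3, and 1.53 times as high in OGD 4 as in the mean of OGD 1 to 3, while the median over all tested genes was 1.0 in both. OGD 4 was still below every Control library for 23 of the genes. With Control 4 and OGD 4 both left out, a choice made after seeing the data, 25 members were again lower. The part of this spread in the comparison was not tested beyond that.

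**Figure D4:**
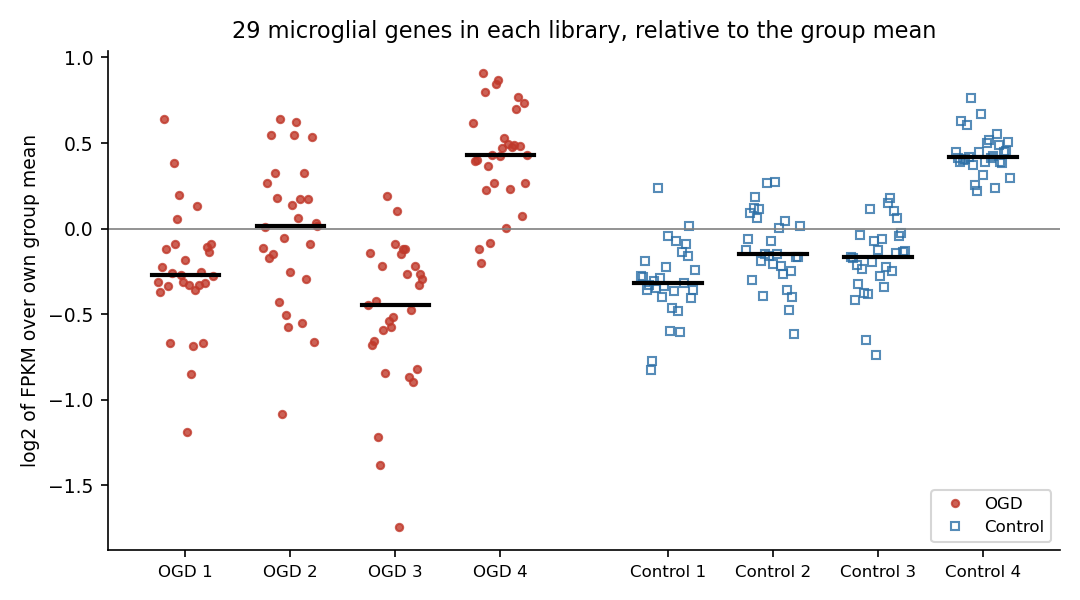
log2 of each of the 29 microglial genes over its own group mean in each library, with OGD libraries left of Control libraries; points are genes and black lines their medians. Replicate 4 is the highest of each group, while OGD 4 (244.5 FPKM summed over the 29 genes) is below the lowest Control library (366.5 FPKM).

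Genes that work with these members were read from further lists, whose counts stand beside 26.8% of all tested genes called lower and 22.7% called higher. Both shares are of the fit with all 8 libraries. Counts without both replicate 4 libraries are given with no such share beside them. Some listed genes passed the filter only through Control, had to differ and are given by their levels. In the complement cascade and its regulators 8 of 10 tested genes fell, 2 of them tested through Control only, and 0 rose, with a median log2 change of -0.78. C3, the component cleaved after C1q has bound, fell with a log2 change of -1.65. C3ar1, the receptor of its fragment C3a, was tested through Control only and averaged 0.425 FPKM in OGD and 3.49 FPKM in Control. Masp1, an initiating protease of the lectin pathway, fell with -0.28, and C1qbp, a mainly mitochondrial protein, read 0.01 with no call. Of the genes that signal below Trem2, Tyrobp and Fc receptors 6 of 9 fell, 4 of them tested through Control only, and 0 rose. Pik3cg, a lipid kinase of leukocytes, is among those 4 and averaged 0.266 FPKM in OGD and 3.23 FPKM in Control, while Lyn read -0.21 and Blnk -0.20 with no call. Of the partners of NADPH oxidase 3 of 5 fell (2 without both replicate 4 libraries): Ncf1 (-1.04), Rac2 (-0.65) and the ubiquitous Rac1 (-0.21). Of the haematopoietic actin and adaptor genes 8 of 11 fell (5 without both replicate 4 libraries), 2 of them tested through Control only. Arpc1b fell (-0.95), Fyb1, one of those 2, averaged 0.659 FPKM in OGD and 2.82 FPKM in Control, and Wipf1 and Elmo1, which stood above 40 FPKM in both groups, read 0.18 and -0.07 with no call.

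Other lists of genes known from microglia differed in their counts. Of the remaining surface and secreted genes 12 of 16 tested fell, 3 of them tested through Control only, and 0 rose. The purinergic receptor P2ry13, one of those 3, averaged 0.069 FPKM in OGD and 1.38 FPKM in Control. Those that fell included the prostaglandin D synthase Hpgds (-1.235) and the signalling regulator Rgs10 (-0.48), while Tgfbr1, a TGF-beta receptor that most cells carry, read -0.24 with no call. Of the disease-associated and lysosomal genes 6 of 16, or 37.5%, fell and 1, or 6.25%, rose, against 26.8% and 22.7% of all tested genes. In this fit with all libraries the share that fell is not far from the background. Without both replicate 4 libraries 8 of the 16 fell and 1 rose. Apoe, the lipid carrier made by astrocytes and microglia, fell with a log2 change of -0.91 and the cathepsin Ctsz with -1.04, while the protease inhibitor Cst3 read -0.36 with no call. Of 25 inflammatory activation genes 5 could be tested, and the 1 called was the Toll-like receptor Tlr2, tested through Control only, at 0.498 FPKM in OGD and 2.46 FPKM in Control, while the adaptor Myd88 read -0.31 and Cd83 -0.25 with no call. Of the 3 antigen presentation genes that were tested, 0 were called, and B2m read -0.17 and Tap1 -0.43. At an unadjusted p under 0.05 the count was also 0, and no tool other than limma was run.

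In the lists of ligands and of transcription factors the shares called were near those of all tested genes. Of the ligands and growth factors 2 of 10 fell and 3 rose (2 without both replicate 4 libraries): Tgfb1 fell (-1.01) and Tgfb2 rose (0.85), while Gas6, a bridge to dying cells, read -0.15 and Cd47, the signal against engulfment, -0.10 with no call. Of the myeloid transcription factors 4 of 15, or 26.7%, fell (2 without both replicate 4 libraries) and 3, or 20.0%, rose. Stat3 fell (-1.10) and Bhlhe41, a factor also made by many other cells, rose (1.45). Sall1, a factor of microglial identity in the mouse that other neural cells can express too, stood at 18.2 FPKM in OGD and 21.0 FPKM in Control libraries and was not called.

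**Figure D5:**
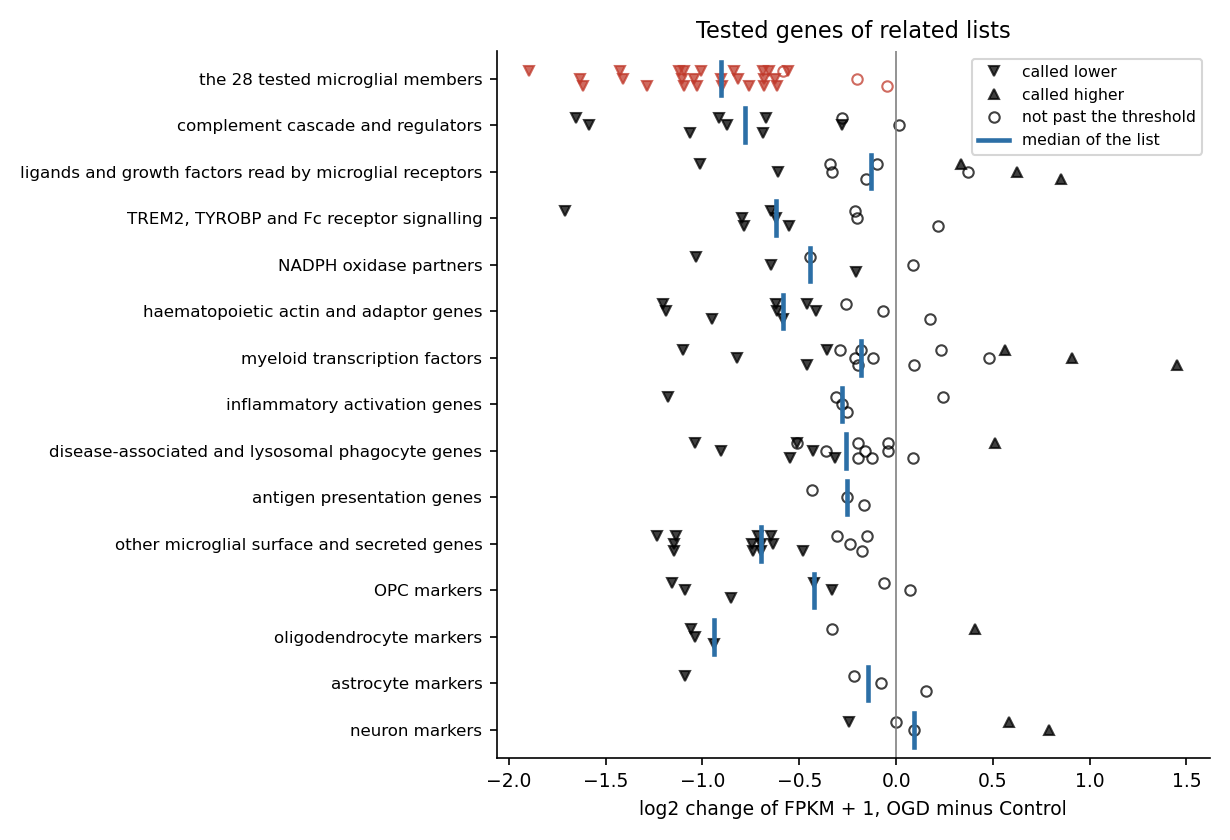
log2 change, OGD over Control, on the log2(FPKM + 1) scale for each tested gene of the lists; points are genes and short lines list medians. The lists of complement, of signalling below Trem2 and of further microglial genes lie mostly below 0, and the ligands and transcription factors lie on both sides.

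Markers of other cells were read beside these. OPC markers fell for 5 of 7 genes (3 without both replicate 4 libraries), with the growth factor receptor Pdgfra at a log2 change of -0.85, the lineage factor Olig1 at -1.16 and the phosphatase Ptprz1 at -0.33 (limma adjusted p = 0.0131, and 0.0616 without both replicate 4 libraries). The 2 that were not called, Olig2 and Sox10, factors of the whole oligodendrocyte lineage, read -0.06 and 0.07. Of the oligodendrocyte markers 3 of 5 fell and 1 rose, the myelin gene Mbp (-1.04) among the falls. Of the astrocyte markers 1 of 4 was called lower, Gfap, tested through Control only, at 0.48 FPKM in OGD and 2.16 FPKM in Control, while the glutamate transporters Slc1a3 and Slc1a2 read -0.08 and -0.22 with no call. Of the neuron markers 2 of 5 rose, Tubb3 (0.79) and Syt1 (0.58), and 1 fell (0 without both replicate 4 libraries). The falls of microglial and OPC markers thus stood side by side, and the part of one in the other was not tested.

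Markers of other blood-borne and vascular cells were at or near 0, while those of border macrophages reached up to 4.18 FPKM (Pf4). All 6 monocyte and neutrophil markers, Ccr2 and S100a8 among them, were listed at 0 in every library, and so were 7 of 8 markers of T, NK and B cells, Cd3e included, with Cd79b at most at 0.295 FPKM. Endothelial and stromal markers reached at most 0.178 FPKM (Kdr), with Cdh5 at 0.0331 FPKM in OGD and 0.0899 FPKM in Control. Of the markers of border macrophages, which share most of the 29 genes with microglia, Cd163 and F13a1 were listed at 0 throughout, and the summed level of the 6 lay between 0.0496 and 1.09 FPKM in OGD and between 1.03 and 7.19 FPKM in Control libraries. Pf4 averaged 0.192 FPKM in OGD and 1.48 FPKM in Control, and Lyve1 0.0746 FPKM in OGD and 0.771 FPKM in Control. The Pf4 means rest largely on replicate 4. Pf4 stood at 0.889, 0.856, 0 and 4.18 FPKM in Control 1 to 4, and at 0, 0, 0 and 0.769 FPKM in OGD 1 to 4. The border macrophage markers were below the filter and were not tested, and their part in the falls of the 29 genes was not tested.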

How the data were processed

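The authors deposited 1 table of FPKM values per gene for 8 libraries, per the file headers. Per the labels' protocols, total RNA was purified with a column kit and made into strand-specific libraries, and per the submitters' processing notes Trimmomatic and FastQC were used with the build rn6 (Rnor_6.0). The sources used here name neither the aligner nor the program behind the FPKM. FPKM holds no counts, so depth is known only as a ratio between libraries, read from values of at most 0.5 FPKM (76.6% to 79.2% of ratios whole within 0.01 on the log2 scale).

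A gene was kept when 4 or more libraries reached 1 FPKM (11149 of 32662). The deposited FPKM values were tested as log2(FPKM + 1), two-sided, by limma 3.58.1 (R 4.3.3) with a trended prior and the group as the only term. The threshold was an adjusted p of 0.05 (Benjamini-Hochberg, over all genes kept). The fit relative to C1q subtracted each library's mean C1q log2 value. A fold change on this scale understates the change of low genes. The method was tested on simulated data. Members, lists and tests were chosen with earlier results of these data known.

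All members are named. From each of 18 further lists the 2 tested genes with the smallest p and the 2 with the highest mean are named (of a list with no tested gene, the 2 highest), except for a few not reported here. Siglech, Cd163, F13a1, Olig2 and Sox10 were added after their values were seen. Of 231 list entries 225 matched a symbol, 1 an older symbol and 5 none. Figures came from matplotlib 3.10.9 and tables from pandas 2.3.3 with numpy 2.4.6, run in Python 3.11.15. Promoter sequences came from RefSeq (GRCr8), and no coordinates were taken over to the table's build.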

Additional observations from a re-analysis of the deposited data

Results flagged for a closer look

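Each gene was looked at for a library far from the other 3 of its group, by the gap to its nearest neighbour over the range of the group. Of 58 groups of 4 values, 5 held such a library, and chance gives about 1 in 20, or 2.9. The genes share the same libraries and moved as a block, so the groups are not independent. The count therefore cannot be weighed against that expectation. All 5 were replicate 4 of its group. In OGD 4, Tyrobp stood at 11.9 FPKM against 4.36 to 5.23 FPKM in OGD 1 to 3, Aif1 at 11 FPKM against 4.88 to 5.69 FPKM, and Ly86 at 1.44 FPKM against 0.54 to 0.664 FPKM. In Control 4, C1qa stood at 81.9 FPKM against 49.4 to 55.0 FPKM in Control 1 to 3, and Cx3cr1 at 6.36 FPKM against 3.2 to 3.55 FPKM. For Cx3cr1 the high Control library widens the difference, and without Control 4 and OGD 4 its log2 change was -1.70. No p is given for it, as it was tested through Control only. For Tyrobp it is OGD 4 that makes the groups overlap, and without both libraries its limma adjusted p was 0.000517 (range over 20 alternatives 0.000158 to 0.0339).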

How the results depend on the processing

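Of the 25 members called lower, 23 kept the call under every alternative that tested them, and Cybb and Irf8 did not. Of 540 single-gene values, 522 kept direction and side of the threshold, 11 lost the call and 3 gained it. The other 4 changed sign, all of Apbb1ip: 0.078 with quantile normalization, 0.00897 without Control 4, 0.0502 without OGD 2 and 0.000147 without OGD 3, with a range of -0.152 to 0.0502 when each library was left out. Cybb also lost its call with no filter and with quantile normalization, and Cyba gained one with median-centring. A filter of 5 FPKM left 11 members lower because fewer passed it. A minimum fold change of 2 left 467 genes and 13 members, by construction. The median change of the members was -1.20 with a pseudocount of 0.1 and -1.23 with none. The homeostatic difference was -0.963 with a pseudocount of 0.1, -1.08 with none and -0.307 without Cx3cr1. Relative to C1q, 7 members stood above and 1 below with a pseudocount of 0.1 and again with none. Against the mean of Tyrobp, Fcer1g, Laptm5 and Ctss 2 stood above and 3 below. Of these 3, Cx3cr1 stood at -0.91 and the rest were C1q chains, which that fit counts as members. Leaving out each library in turn gave 4830 to 5494 called genes, 23 to 25 members lower, a median of -1.05 to -0.791, 11 to 18 members above C1q and 0 below, and a homeostatic difference of -0.527 to -0.41. Over all tested genes, libraries that share a number did not deviate together (correlations across genes -0.222, 0.163, 0.0105 and 0.0902). Among the members, replicate 4 was the highest of its group for 28 genes in Control and 22 in OGD. The library lowest for most members was Control 1 in Control and OGD 3 in OGD, with 17 genes each. Whether the numbers pair the libraries for the members alone was not tested. With the replicate number as a block 5509 genes and 25 members were called, and 22 members stood above C1q and 0 below. Leaving out both replicate 4 libraries, using no pseudocount and leaving out Cx3cr1 were chosen after seeing the data. Absolute depth is unknown, so how far it limits the values below 1 FPKM cannot be stated.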
